A study of Mus musculus with 3 samples.

Results

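The forkhead (Fox) family of transcription factors was examined in renin-producing cells of the mouse kidney. Members were the probe sets that carry 1 gene symbol made of Fox, a letter and a digit. There were 45 such probe sets for 43 genes, out of 21789 probe sets with 1 symbol and 19938 genes in all. The cells came from the renal cortex of adult male mice with the reporter Ren1c-YFP, which marks cells that express renin with yellow fluorescent protein (YFP); the strain was unspecified. For 2 weeks all mice ate low-salt chow and drank water with captopril (0.5 mg/ml), which blocks angiotensin-converting enzyme, a regime known to recruit more renin-producing cells. YFP-positive cells were sorted, and their RNA was amplified and hybridised to 1 Affymetrix array per sample. These make up 1 group of 3 samples, replicates 2, 4 and 5, with no control group analysed here. The values therefore describe levels in the sorted samples and no response to captopril, to salt or to the sort. Per the labels the samples were not pooled. Whether each is a different mouse is not stated, so the p-values reflect the spread among these 3 samples, which may be technical.

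Forkhead proteins share a winged-helix DNA-binding domain that recognises variants of the sequence GTAAACA. Subfamilies are told apart by letter: FoxO proteins are switched off by insulin through the kinase Akt and turn on genes of stress resistance and metabolism, FoxC and FoxD proteins pattern mesoderm, stroma and vessels, and FoxP proteins are repressors. In the developing kidney, stromal progenitors that express Foxd1 give rise to renin cells, smooth muscle, pericytes and mesangial cells. In the adult kidney, Foxi1 is the master regulator of intercalated cells of the collecting duct.

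Markers of renin and mural cells were above background, by the test described below, together with markers of other kidney cells. All 8 measured renin cell markers were above background, as were 9 of 9 smooth muscle markers. So were 9 of 9 proximal tubule and 7 of 7 intercalated cell markers, beside 37.3% of all genes. Of 12 endothelial markers 7 were, and 3 or 5 without replicate 2 or replicate 4 (30.3% and 32.1% of all genes). Of 6 lymphocyte markers none passed by limma (0 at an unadjusted p under 0.05). Ren1 and Akr1b7 were not analysed here, and Rgs5 stands in both the renin cell and the pericyte list. Of the endothelial markers 11 of 12 were highest in replicate 2, and Tek was lowest there. In such bulk samples, fewer cells of a type and less RNA per cell cannot be told apart, and the source cell of a transcript is not known from its call.

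The question put to each gene was whether its signal stood above the background of the arrays. To set that background, the log2 signals of 1027 olfactory receptor genes, presumed silent in kidney, were ranked on each array, and their 95th percentile was the level: 6.20 on replicate 2, 6.32 on replicate 4 and 6.50 on replicate 5. Each gene's difference from the level was tested with limma (one-sided, Benjamini-Hochberg adjustment over all 19938 genes, threshold 0.05).

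Of the 43 forkhead genes, 13 (30.2%) passed, against 37.3% of all genes tested. They were Foxn3, Foxn2, Foxj2, Foxj3 and Foxk2 of the broadly expressed members, Foxo1 and Foxo3, Foxp1, the vascular factor Foxc2, the epithelial factors Foxi1 and Foxq1, and Foxe3 and Foxb2. A further 7 genes had a mean above the level without passing, and 23 had a mean below it. The median difference from the level was -0.10 log2 units over the family and -0.01 over all genes. At an unadjusted p under 0.05, 16 forkhead genes passed. Probe affinity also sets a signal, so each gene is read against background and no gene's level is ranked against another's.

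**Figure D1:**
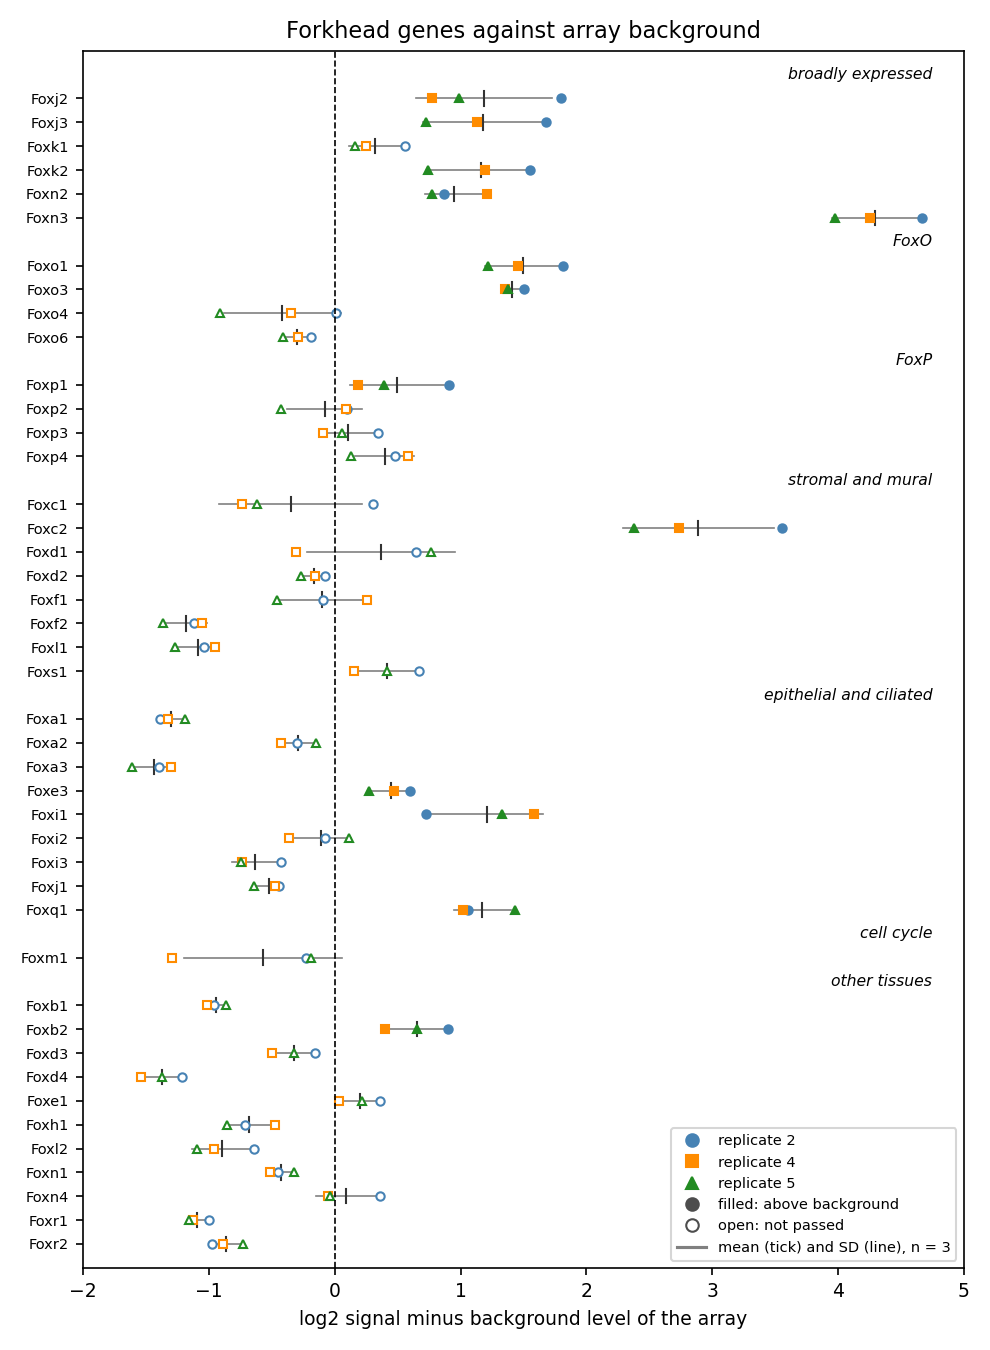
Log2 signal minus the background level of the same array (horizontal axis, log2 units) for each of the 43 forkhead genes in replicates 2 (circles), 4 (squares) and 5 (triangles), with the mean (tick) and SD (line, n = 3), grouped by role. Filled symbols mark the 13 genes that passed limma's test. The means of Foxn3 and Foxc2 stood 4.30 and 2.89 above the level, and the means of all others lay within 1.5 units of it.

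Broadly expressed forkhead genes were above background in 5 of 6 cases (83.3%, beside 37.3% of all genes). The classes are small, and no class count here or below was tested against the share of all genes. Foxn3, a repressor linked to the DNA-damage checkpoint, had log2 signals of 10.87, 10.57 and 10.48 in replicates 2, 4 and 5. All of its arrays lay far above the level, by 4.30 ± 0.24 (mean ± SE, n = 3, limma adjusted p = 2.35e-06). That value comes from the brighter of 2 probe sets. The other had signals of 7.18, 6.43 and 6.41, was above the level in replicates 2 and 4, and did not pass on its own (limma adjusted p = 0.208).

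Foxj2, an activator expressed in many tissues, had log2 signals of 8.00, 7.09 and 7.49 and its relative Foxj3 had 7.88, 7.45 and 7.23. Both were highest in replicate 2, and they stood 1.19 ± 0.25 and 1.18 ± 0.24 above the level (mean ± SE, n = 3, limma adjusted p = 0.00278 and 0.00227). Foxk2, which recruits the SIN3 and BAP1 complexes to DNA, had 7.76, 7.51 and 7.24, again with replicate 2 highest and replicate 5 lowest, 1.16 above the level (limma adjusted p = 0.00186). Foxn2 had 7.07, 7.53 and 7.27, with replicate 4 highest, 0.95 above the level (limma adjusted p = 0.0024). Foxk1, which shares the FoxK partners, had 6.76, 6.57 and 6.66. Each of its arrays was above the level, yet the mean excess of 0.32 did not pass (limma adjusted p = 0.0964).

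Of the 4 FoxO genes, 2 passed (50%, beside 37.3% of all genes). Foxo1, the main FoxO factor of liver and vessels, had log2 signals of 8.01, 7.77 and 7.72, 1.49 ± 0.22 above the level (mean ± SE, n = 3, limma adjusted p = 0.000477). Foxo3, a factor of stress resistance and quiescence, had 7.71, 7.67 and 7.88, 1.41 ± 0.20 above it (limma adjusted p = 0.000395). Neither varied much between arrays, with SDs of 0.16 and 0.11. Foxo4 had 6.21, 5.97 and 5.59 and was above the level in replicate 2 only, by 0.01, while Foxo6, known mainly from brain, had 6.01, 6.03 and 6.10 and was under it in each array. Their means were -0.42 and -0.30 relative to the level.

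Among the 8 stromal and mural forkhead genes, 1 passed (12.5%, beside 37.3% of all genes). Foxc2, needed for vessel remodelling and lymphatic valves, had log2 signals of 9.76, 9.05 and 8.89. Every array lay more than 2 units above the level, with replicate 2 the highest, and the mean excess was 2.89 ± 0.29 (mean ± SE, n = 3, limma adjusted p = 6e-05). Its close relative Foxc1, which acts with Foxc2 in mesoderm and vessels, had 6.50, 5.58 and 5.89 and was above the level in replicate 2 alone, with a mean of -0.35 relative to it. Both Foxc genes were highest in replicate 2, as were 43.8% of all genes called. The endothelial marker list, in which 7 of 12 genes passed, had a summed log2 signal of 94.9, 83.7 and 82.5 in replicates 2, 4 and 5. Its median deviation from the mean of the arrays in replicate 2 was 0.59. Mesangial (0.19), smooth muscle (0.18), renin cell (0.14) and podocyte (0.14) markers also had their highest median deviation in that replicate. In the endothelial list the mean of 1 marker, Erg, lay under the level. In the other lists just named, the mesangial marker Thy1 and the podocyte markers Nphs1 and Ptpro did. Foxc2 stood 3.55, 2.73 and 2.38 above the level in replicates 2, 4 and 5. The part of any of these cell types in the Foxc2 level was not tested.

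Foxd1, the marker of the embryonic stromal progenitors of renin cells, had log2 signals of 6.85, 6.01 and 7.27. Replicates 2 and 5 lay above the level by 0.65 and 0.76, and replicate 4 lay 0.31 below it. The mean excess of 0.37 ± 0.23 (SE, n = 3) did not pass (limma adjusted p = 0.169), and the SD of 0.64 was among the widest of the family. Without replicate 4 the gene was called (limma adjusted p = 0.0388), and over all 12 alternatives the adjusted p ran from 0.00131 to 1.

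Foxs1, a forkhead gene of pericytes, had 6.87, 6.47 and 6.92 and was above the level in each array, by a mean of 0.41 that missed the threshold (limma adjusted p = 0.0538). It passed in 6 of 12 alternatives (adjusted p from 0.000124 to 1). Foxf1, of mesenchyme beside epithelia, had 6.11, 6.58 and 6.04 at its brighter probe set and was above the level in replicate 4 alone, and its other probe set, at 5.78, 5.90 and 5.72, was under the level throughout. Foxd2 (6.12, 6.16 and 6.24), Foxf2 (5.08, 5.26 and 5.14) and Foxl1 (5.16, 5.36 and 5.23) were under the level in every array.

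Of the 4 FoxP repressor genes, 1 passed (25%, beside 37.3% of all genes). Foxp1 had log2 signals of 7.11, 6.50 and 6.89 and a mean excess of 0.49 ± 0.19 (SE, n = 3, limma adjusted p = 0.0431). This call rested on all 3 arrays, because without replicate 2, 4 or 5 the adjusted p was 0.245, 0.0524 or 0.0510 (over all 12 alternatives, from 0.000156 to 1). Foxp4 had 6.68, 6.90 and 6.64, above the level in each array by a mean of 0.40 (limma adjusted p = 0.0568), and was called without replicate 5 (limma adjusted p = 0.0250, alternatives from 0.000103 to 1). Foxp2, known for its roles in brain and lung, had 6.30, 6.40 and 6.08 around the level. Foxp3, the lineage factor of regulatory T cells, had 6.55, 6.22 and 6.56 and did not pass (limma adjusted p = 0.556). None of the 7 regulatory T cell genes passed by limma either (1 at an unadjusted p under 0.05).

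Epithelial and ciliated-cell forkhead genes passed in 3 of 9 cases (33.3%), near the 37.3% of all genes. Foxi1, the intercalated cell regulator, had log2 signals of 6.92, 7.90 and 7.83. It was above the level in each array and lowest in replicate 2, by 0.94 log2 units below the mean of the other arrays, with a mean excess of 1.21 ± 0.23 (SE, n = 3, limma adjusted p = 0.00177). Intercalated cell markers passed in 7 of 7 cases, and their summed log2 signal was 54.3, 57.6 and 56.5 in replicates 2, 4 and 5, lowest in replicate 2. Single markers differed in this: 4 of 7 were lowest in replicate 2, Atp6v1b1 and Atp6v0d2 in replicate 5 and Atp6v1g3 in replicate 4, and the list's median signal was lowest in replicate 5 (7.32, 7.76 and 7.17). With replicate 2 left out 5 of them passed (30.3% of all genes), and with replicate 4 left out 4 did (32.1%). None of the intercalated cell markers had a mean under the level. Their median deviation from the mean of the arrays in replicate 2 was -0.13. Principal cell (-0.34), macrophage and dendritic (-0.17), distal and connecting tubule (-0.16) and lymphocyte (-0.12) markers also had their lowest median deviation there. In those lists 6 of 7, 3 of 8, 4 of 6 and 0 of 6 genes passed. The part of any of these cell types in the Foxi1 signal was not tested.

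Foxq1, an epithelial factor, had 7.26, 7.34 and 7.94 and was highest in replicate 5, with a mean excess of 1.17 (limma adjusted p = 0.00102). Foxe3, a lens factor, had nearly equal signals of 6.80, 6.79 and 6.78, 0.45 above the level (limma adjusted p = 0.0331). Its call was lost when replicate 2 was left out (limma adjusted p = 0.151) and when replicate 4 was (0.149), and over all 12 alternatives the adjusted p ran from 6.58e-05 to 1. Foxj1, the master gene of motile cilia, had 5.76, 5.84 and 5.86, under the level in each array. The pioneer factors of endoderm, Foxa1 (4.81, 4.99 and 5.31), Foxa2 (5.90, 5.89 and 6.35) and Foxa3 (4.81, 5.01 and 4.90), were likewise under it. So was Foxi3 (5.77, 5.58 and 5.76), while Foxi2 (6.12, 5.95 and 6.61) exceeded it in replicate 5 alone.

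Foxm1, which drives entry into mitosis, had log2 signals of 5.97, 5.03 and 6.31. It was under the level in every array, and replicate 4 lay 1.12 below the mean of the other arrays, the widest such gap in the family.

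Members known from other tissues passed in 1 of 11 cases (9.09%, beside 37.3% of all genes). That gene was Foxb2, a neural factor, with log2 signals of 7.10, 6.72 and 7.15, 0.65 above the level (limma adjusted p = 0.0108), and it was not called without replicate 2 (limma adjusted p = 0.0701, alternatives from 6.7e-05 to 1). Foxe1 of the thyroid (6.56, 6.35 and 6.72) was above the level in each array without passing (limma adjusted p = 0.238), and Foxn4 of retina and spinal cord (6.56, 6.26 and 6.46) in replicate 2 alone. The remaining 8 were under it in all arrays: Foxb1, Foxd3, Foxd4, Foxh1, Foxl2, Foxn1, Foxr1 and Foxr2, with means from -1.38 to -0.33 relative to the level.

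How many forkhead genes counted as above background depended on the level. Of the 1027 olfactory receptor genes 21 (2.04%) passed the main test, as did 10 of 44 keratin-associated protein genes (22.7%). As a family closer in kind, 64 transcription factors of other tissues, such as neural and muscle regulators, were also measured. Of these 6 (9.38%) passed, or 3 with replicate 4 left out (32.1% of all genes). Nkx6-2, named after its values were seen, stood 1.75 above the level (limma adjusted p = 0.000208, and 0.0118 at the 99th percentile). A pass alone does not show expression, for forkhead genes or for these other-tissue factors. With the level at the 95th percentile of those factors, 6.81, 6.98 and 7.10 in replicates 2, 4 and 5, 4 forkhead genes passed, Foxc2, Foxn3, Foxo1 and Foxo3 (limma adjusted p = 0.000182, 2.53e-06, 0.0108 and 0.0119), against 21.2% of all genes. Foxq1, Foxi1, Foxk2, Foxj3, Foxj2 and Foxn2 then kept a positive mean without passing (limma adjusted p from 0.06 to 0.239). Foxb2 stood 0.03 above that level, and Foxp1 and Foxe3 below it. With the level raised to the 99th percentile, 2 passed, Foxc2 and Foxn3 (16.6% of all genes). Foxo1 and Foxo3 lay just beyond the threshold there (limma adjusted p = 0.0509 and 0.0586). At a level from keratin-associated protein genes, which reached 8.41 to 9.15, 1 passed, Foxn3 (3.56% of all genes, limma adjusted p = 0.000625). Foxn3 was called under all 12 alternatives.

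**Figure D2:**
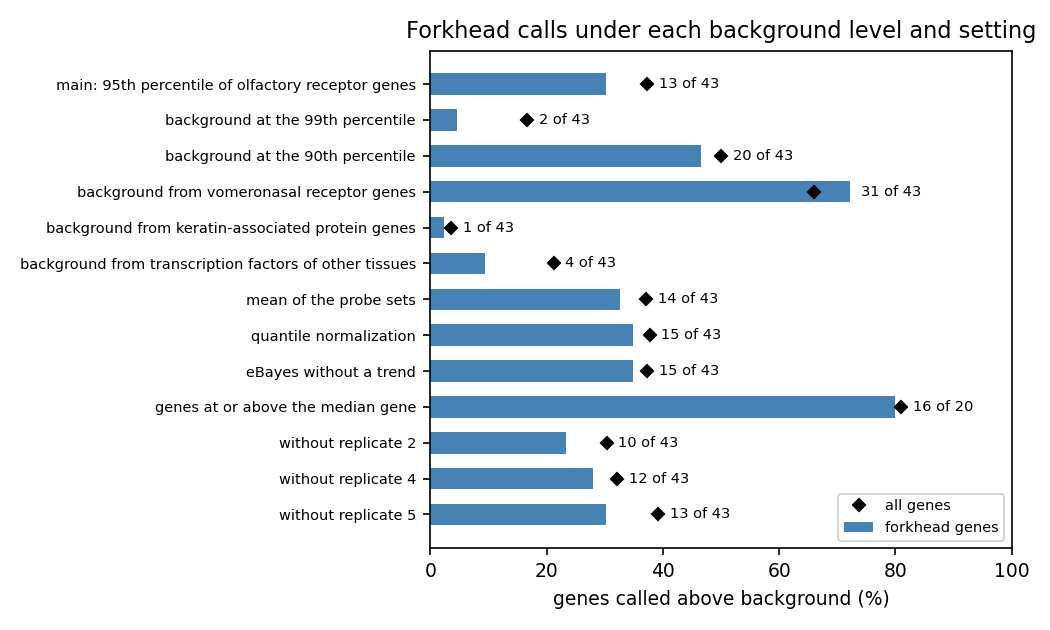
Share of forkhead genes (bars) and of all genes (diamonds) called above background, in percent, under the main setting and 12 alternatives, with the number of forkhead genes called beside each bar. The count ran from 1 of 43 with the keratin-associated level to 31 of 43 with the vomeronasal receptor level, and the share of all genes moved with it.

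Forkhead genes are often short and free of introns, and the calls were read against the span of the genes in the RefSeq annotation of GRCm38.p6. Of 21 forkhead genes spanning under 5000 bases, 5 were called (23.8%), and of the 22 with longer spans, 8 (36.4%). Over all genes the shares were 24.2% and 41.1%. The median span was 49830 bases for called and 4628.5 bases for other forkhead genes, beside 17707 bases for all genes. The 5 short members that passed were Foxb2, Foxc2, Foxe3, Foxi1 and Foxq1.

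Genes that act with forkhead proteins were taken from lists of regulators, partners and textbook targets. Of 130 measured genes on these lists, 80 (61.5%) passed, beside 37.3% of all genes. The lists were chosen with earlier results of these data known, so no weight can be put on the difference between these shares. In the insulin and PI3K pathway, which holds FoxO proteins in the cytoplasm, 11 of 15 passed. The insulin receptor gene Insr had log2 signals of 11.09, 11.04 and 10.83, 4.64 above the level (limma adjusted p = 1.1e-06). The IGF1 receptor gene Igf1r (8.70, 8.46 and 7.56) and the adaptor gene Irs1 (7.05, 7.55 and 8.35) also passed (limma adjusted p = 0.000751 and 0.00159). They ran in opposite directions over the arrays, with replicate 5 lowest for Igf1r and highest for Irs1. Irs2 (6.55, 6.13 and 6.30) did not pass. Of 19 genes that modify FoxO proteins or carry them in and out of the nucleus, 17 passed, among them the acetyltransferase genes Ep300 (8.80 ± 0.64, mean ± SD, n = 3) and Crebbp (9.79 ± 0.63) and the 14-3-3 gene Ywhab (10.33 ± 0.36). The deacetylase gene Sirt1 (6.54 ± 0.48) did not (limma adjusted p = 0.455).

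FoxO target genes were above background in 18 of 28 cases. Cdkn1b, the p27 inhibitor of the cell cycle, had log2 signals of 10.50, 10.29 and 10.51, and the antioxidant genes Sod2 and Cat had 9.83, 10.19 and 9.39 and 10.24, 10.31 and 9.71. They stood 4.09, 3.46 and 3.74 above the level (limma adjusted p = 2.38e-06, 1.71e-05 and 9.11e-06). Gadd45a, of DNA damage repair, was at 8.13 ± 0.26 (SD, n = 3, limma adjusted p = 0.000301). The lymphocyte target Il7r lay far under the level (-1.77). Several of these genes are known to be expressed in the proximal tubule, whose markers passed in 9 of 9 cases with summed log2 signals of 98.7, 99.9 and 94.6 in replicates 2, 4 and 5, and the part of tubule RNA in their levels was not tested.

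Gene lists of single forkhead factors passed in all or in none of their members at the extremes. All 10 measured Foxi1 targets of intercalated cells passed. The proton pump genes Atp6v1g3, Atp6v0a4, Atp6v1b1 and Atp6v1c2 were at 11.09 ± 0.23, 9.40 ± 0.24, 7.38 ± 0.36 and 6.91 ± 0.14 (mean ± SD, n = 3). Without replicate 2 and without replicate 4, 8 and 7 of the targets passed (30.3% and 32.1% of all genes). At the level of transcription factors of other tissues 5 did (21.2%). None of 12 Foxj1 targets of motile cilia passed by limma (0 at an unadjusted p under 0.05), with Dnah5 at 5.32 ± 0.12 and Rsph4a at 4.71 ± 0.14. Among the 7 Foxp3 genes, Il2ra was at 4.60 ± 0.12 and Ctla4 at 5.20 ± 0.07. Foxi1 itself was called, while Foxj1 and Foxp3 were not, and a link between a factor and its list was not tested. The Foxi1 list shares Atp6v1g3, Slc4a9, Slc4a1, Slc26a4 and Atp6v1b1 with the intercalated cell markers, so their counts are not separate evidence. The same holds for Cd3e and Cd4, which stand in both the Foxp3 list and the lymphocyte markers. The list medians were 1.42 above the level for Foxi1 targets, and -1.03 and -0.28 relative to it for Foxj1 and Foxp3 genes, beside -0.01 for all genes.

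The other lists were mixed. Of 10 mitotic Foxm1 targets 2 passed, the centromere gene Cenpa (8.95, 7.43 and 8.23) and Cks1b (8.40, 9.37 and 8.26), the latter named after its values were seen, while Plk1 (5.30, 4.73 and 5.13), Cdc25b (6.58, 5.84 and 6.47) and Aurkb (6.12, 6.21 and 6.58) did not. Of 6 FoxC targets of vessels 3 passed, Notch1 (7.19 ± 0.27, SD, n = 3), its effector Hey2 (9.07 ± 0.45) and Angpt2 (9.19 ± 0.21, named after its values were seen), but not Dll4 (6.54 ± 0.04), Cxcr4 (6.26 ± 0.24) or Itgb3 (5.93 ± 0.09). FoxP corepressor partners passed in 7 of 8 cases, with the deacetylase genes Hdac1 and Hdac2 at 9.33 ± 0.09 and 10.49 ± 0.26, and without Gatad2a (6.49 ± 0.24). FoxK partners passed in 6 of 7, with Bap1 at 7.70 ± 0.10 and Hcfc1 at 7.47 ± 0.24, and without Sin3b (6.36 ± 0.19). Of 8 stromal transcription factors of the Foxd1 lineage 6 passed, with Meis1 at 8.14 ± 0.13 and Meis2 at 8.43 ± 0.46, while Tbx18 (4.74 ± 0.32) and Tcf21 (5.58 ± 0.19) were under the level. Foxd1 itself did not pass.

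The counts of several lists depended on the background level, as did the share of all genes. That share was 37.3% in the main setting, 16.6% at the 99th percentile, 21.2% with other-tissue factors and 3.56% with the keratin-associated level. With the level at the 99th percentile or from transcription factors of other tissues, FoxK partners fell from 6 to 1 or 3, the insulin and PI3K list from 11 to 5 or 6, FoxP corepressors from 7 to 4 under both, and FoxO targets from 18 to 11 or 14. The Foxd1 lineage list stayed at 6 under both. With the keratin-associated level, no list had more than 4 genes called. Of the genes named as passing, Notch1, Atp6v1c2 and Sesn1 had means under the 99th percentile level (-0.01, -0.30 and -0.04), and Atp6v1c2 lay under that of the other-tissue factors too (-0.06).

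**Figure D3:**
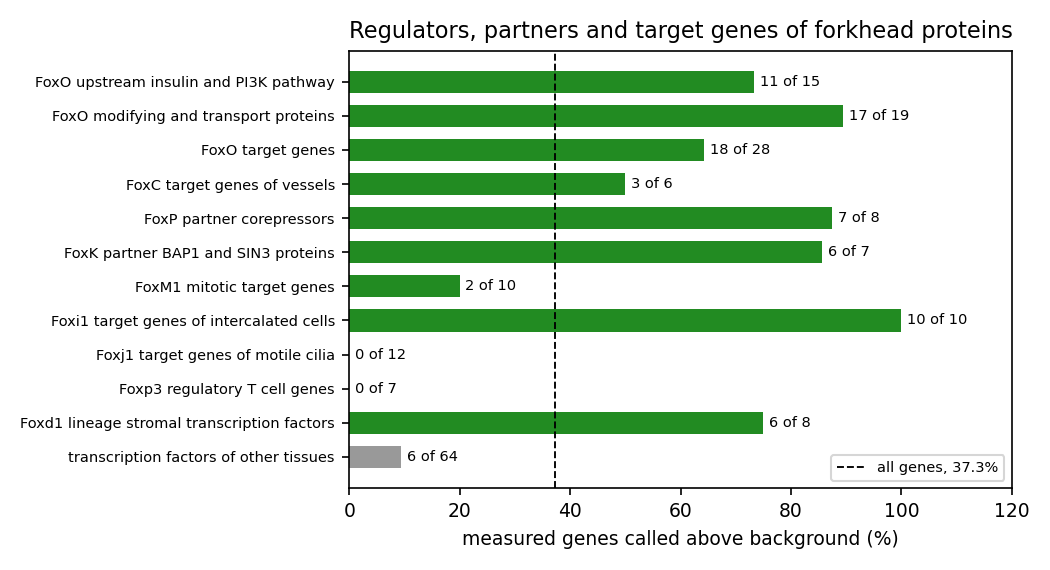
Share of measured genes called above background (horizontal axis, percent) in each list of genes that act with forkhead proteins (green) and in transcription factors of other tissues (grey), with the counts beside the bars and the share of all genes, 37.3%, as a dashed line. The Foxi1 list stood at 10 of 10, and the Foxj1 and Foxp3 lists at 0 of 12 and 0 of 7.

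The forkhead recognition sequence was looked for in RefSeq promoters of GRCm38.p6, from 250 bases before to 50 after each gene's start, as GTAAACA or its reverse complement TGTTTAC, which are 1 motif read on both strands. It was present in 3.65% of all 32851 promoters and in 3.01% of the 19177 promoters of genes measured here. Among FoxO target genes 4 of 29 promoters (13.8%, in 4 of 26 genes) held it, among Foxi1 targets 1 of 6, and among forkhead genes 1 of 33 promoters (28 of 43 genes matched). It was found in 1 of 24 promoters of the insulin and PI3K list (Akt1), 1 of 18 of the genes that modify or transport FoxO (Mdm2) and 1 of 11 of the FoxP corepressors (Ctbp2). It was found in none of the promoters of the FoxC (4), FoxK (9), FoxM1 (9), Foxj1 (13), Foxp3 (4) and Foxd1 lineage (10) lists. Akt1 and Mdm2 are named for the motif. The promoters of the FoxO targets, the Foxi1 target and the forkhead gene are shown because they set the letters beside the signals of genes on both sides of the background level. Capitals mark the motif, and each sequence is the strand of the gene, 5′ to 3′.

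Txnip, chr3:96557707-96558006, + strand: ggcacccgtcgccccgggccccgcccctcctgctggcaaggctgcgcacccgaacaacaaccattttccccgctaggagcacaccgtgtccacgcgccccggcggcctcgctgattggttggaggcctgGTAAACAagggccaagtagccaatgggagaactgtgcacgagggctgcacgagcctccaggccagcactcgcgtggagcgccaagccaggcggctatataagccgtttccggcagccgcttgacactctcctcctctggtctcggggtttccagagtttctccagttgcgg

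Sesn1, chr10:41810324-41810623, + strand: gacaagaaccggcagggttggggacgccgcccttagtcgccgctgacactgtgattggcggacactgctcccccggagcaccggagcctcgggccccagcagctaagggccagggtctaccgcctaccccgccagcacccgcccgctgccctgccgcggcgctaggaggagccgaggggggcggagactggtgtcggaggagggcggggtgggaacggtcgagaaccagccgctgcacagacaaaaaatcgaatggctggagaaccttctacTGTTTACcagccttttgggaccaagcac

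Atp6v1b1, chr6:83742767-83743066, + strand: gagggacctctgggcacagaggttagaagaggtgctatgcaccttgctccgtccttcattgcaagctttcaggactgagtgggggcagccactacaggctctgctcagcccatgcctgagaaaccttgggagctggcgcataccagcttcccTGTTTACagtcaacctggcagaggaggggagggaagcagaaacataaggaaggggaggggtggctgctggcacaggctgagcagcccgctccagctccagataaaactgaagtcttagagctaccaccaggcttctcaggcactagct

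Bcl2l11, chr2:128125788-128126087, + strand: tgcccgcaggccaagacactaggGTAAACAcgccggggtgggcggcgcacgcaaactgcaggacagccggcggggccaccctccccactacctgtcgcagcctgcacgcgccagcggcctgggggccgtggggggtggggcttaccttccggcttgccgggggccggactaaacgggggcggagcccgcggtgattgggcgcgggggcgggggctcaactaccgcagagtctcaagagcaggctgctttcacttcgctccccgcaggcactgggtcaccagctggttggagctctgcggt

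Trim63, chr4:134314870-134315169, + strand: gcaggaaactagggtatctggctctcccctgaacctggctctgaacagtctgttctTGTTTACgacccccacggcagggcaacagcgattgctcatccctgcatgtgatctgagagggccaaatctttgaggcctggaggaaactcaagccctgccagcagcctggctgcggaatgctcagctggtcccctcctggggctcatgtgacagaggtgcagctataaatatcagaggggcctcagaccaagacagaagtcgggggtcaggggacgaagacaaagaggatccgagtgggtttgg

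Foxa1, chr12:57546062-57546361, - strand: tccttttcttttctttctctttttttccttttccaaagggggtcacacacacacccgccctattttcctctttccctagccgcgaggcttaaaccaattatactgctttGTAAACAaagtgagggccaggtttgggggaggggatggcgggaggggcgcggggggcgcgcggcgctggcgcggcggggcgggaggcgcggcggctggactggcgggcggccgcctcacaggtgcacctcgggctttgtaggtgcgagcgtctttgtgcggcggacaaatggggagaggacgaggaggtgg

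The genes shown lay on both sides of the background level. Txnip, an inhibitor of thioredoxin, had log2 signals of 10.28, 10.57 and 10.42, Sesn1, a stress-induced sestrin, 6.97, 7.11 and 7.42, and the proton pump gene Atp6v1b1 7.32, 7.76 and 7.05, and all 3 passed (limma adjusted p = 2.35e-06, 0.00304 and 0.00353). The pro-apoptotic gene Bcl2l11 (5.42, 5.50 and 5.61), the muscle ubiquitin ligase gene Trim63 (5.67, 5.81 and 5.65) and Foxa1 were under the level in every array. In Txnip the motif ended 115 bases before the start, in Atp6v1b1 92 bases before it, in Bcl2l11 221, in Trim63 188 and in Foxa1 135, and in Sesn1 it began at the 23rd base from the start. Sesn1, Txnip, Bcl2l11 and Trim63 are named here for the motif and not by the rule for named genes. A match of letters is a description of the window and not a binding site.

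The spread between arrays among the called members was close to that of all called genes. None of the 13 called forkhead genes differed by more than 1 log2 unit between its highest and lowest array, beside 13.7% of all genes called. Foxi1 (0.98), Foxj2 (0.91) and Foxc2 (0.87) lay just under that limit, and the difference in shares was not tested. Their median SD was 0.26, beside 0.27 for all called genes. The widest were Foxi1 (SD 0.55), Foxc2 (0.46) and Foxj2 (0.46), and the narrowest was Foxe3 (0.01). Of the members that did not pass, Foxd1 and Foxm1 exceeded 1 log2 unit, with replicate 4 lowest in both.

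Replicate 2 was the highest array for 8 of the 13 called forkhead genes in log2 signal (61.5%), against 43.8% of all genes called. It was the highest for 10 of 13 (76.9%) relative to the array's background level, against 62.1% of all genes called. Foxn2, Foxi1 and Foxq1 ran the other way, with replicate 2 lowest in log2 signal. Endothelial markers had a median deviation of 0.59 from the mean of the arrays in replicate 2, and principal cell markers one of -0.34. The part of either in these differences was not tested, and 3 arrays of 1 group allow no test between arrays.

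**Figure D4:**
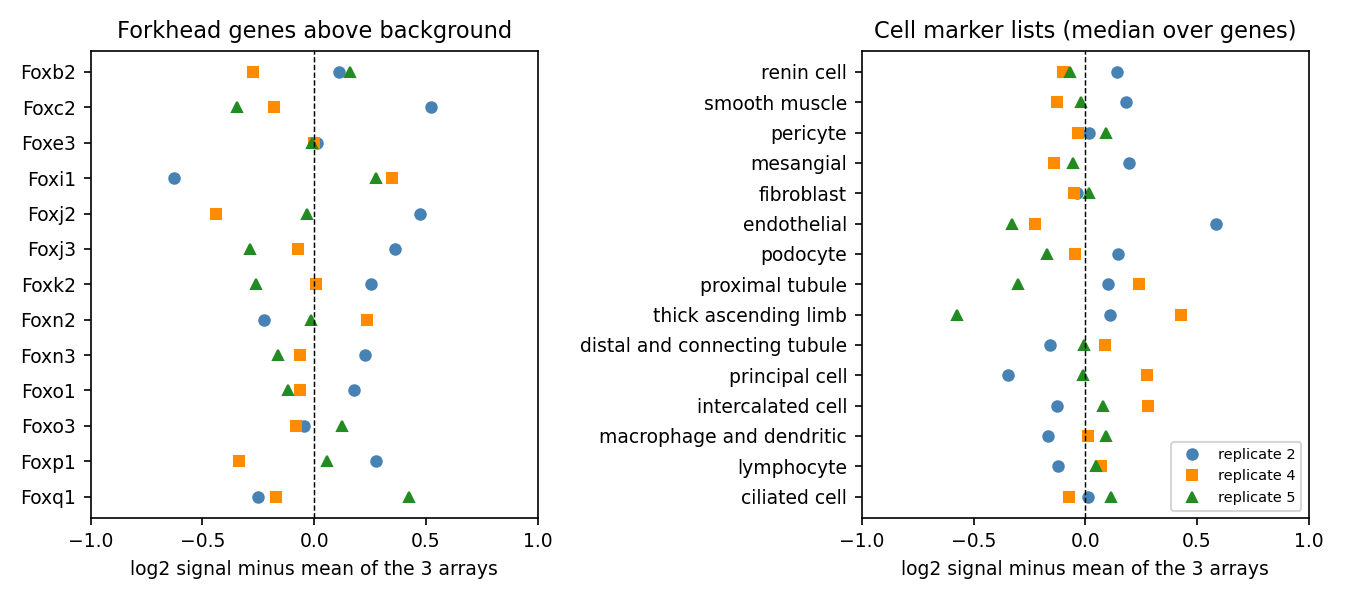
Log2 signal minus the mean of the 3 arrays (horizontal axis, log2 units) in replicates 2 (circles), 4 (squares) and 5 (triangles), for the 13 forkhead genes above background (left) and as the median over each cell marker list (right). Replicate 2 was highest for Foxc2 and for endothelial markers (0.59) and lowest for Foxi1, Foxn2 and Foxq1 and for principal cell markers (-0.34).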

How the data were processed

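The deposited table holds 1 log2 signal per probe set and array for 3 arrays of 1 group. Per the submitters' processing notes the authors used Affymetrix Expression Console. For its version, background correction, normalization and build: not given in the sources used here. From their range, values were taken to be log2. Probe sets were named through the platform annotation (21789 with 1 symbol, 1621 with several, 12147 unnamed). Of the former, 21698 matched RefSeq by Entrez identifier and 0 symbols changed. The brightest probe set of a gene was taken. Background levels and the one-sided test are as given above (R 4.3.3 and limma 3.58.1, fitted with an intercept alone and a mean-variance trend in eBayes; Python 3.11.15, pandas 2.3.3, numpy 2.4.6).

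The number of arrays limits the precision. The fit was tested on simulated data with independent noise per gene and 1 fixed level for all arrays. Of 50 genes planted 0.5 log2 units above the level 82% were called, and of genes not above it 0.122% were. The simulation held no shift shared by the genes of an array and no error in the level. It covers noise between arrays, not between probes, so it cannot show that a call means expression.

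Members and lists were chosen with earlier results of these data known. Every forkhead gene could be named. From each pathway list the first 4 measured symbols and the lowest were eligible. Promoter sequences are from RefSeq, GRCm38.p6, and the array's build is not named. A planned description of protein sequences was not made. Alternatives were other percentiles and families for the level, the mean of probe sets, quantile normalization, eBayes without a trend, a filter on dim genes, and leaving out each replicate.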

Additional observations from a re-analysis of the deposited data

How the results depend on the processing

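The count of forkhead genes above background was 13 of 43 in the main setting (37.3% of all genes called). It was 2 with the level at the 99th percentile (16.6% of all genes), 20 with it at the 90th (50%) and 31 with the vomeronasal level (65.9%). It was 1 with the keratin-associated level (3.56%) and 4 with the level of transcription factors of other tissues (21.2%). By construction a higher level leaves fewer genes above it. The count stayed within 1.5 times of 13 with the mean of probe sets (14), quantile normalization (15) and no trend (15). Of all genes, 37.1%, 37.7% and 37.3% were called there. The count was 13 with each probe set on its own, chosen after seeing the data. Without replicate 2, 4 or 5 it was 10, 12 or 13, beside 30.3%, 32.1% and 39.2% of all genes. With the filter on dim genes 16 of the 20 members left were called, where 81% of all genes left were, so that count is not like the others. All 13 genes called in the main setting were also called with the mean of probe sets, quantile normalization, no trend and the filter. The 80 pathway genes fell to 49 at the 99th percentile (16.6% of all genes) and to 11 with the keratin-associated level (3.56%). Without replicate 2, 4 or 5 they were 67, 72 or 84, beside the shares of all genes given above. The median SD of called members was 0.25 under quantile normalization and 0.31 with the mean of probe sets, beside 0.26.

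Mean differences of forkhead genes from the level changed sign, with a call in 1 of the settings compared, as follows (log2 units). At the 99th percentile they were Foxb2 (-0.21), Foxe3 (-0.42) and Foxp1 (-0.37). With the level of transcription factors of other tissues they were Foxe3 (-0.17) and Foxp1 (-0.13). With the keratin-associated level they were Foxb2 (-1.67), Foxe3 (-1.88), Foxi1 (-1.12), Foxj2 (-1.14), Foxj3 (-1.15), Foxk2 (-1.16), Foxn2 (-1.38), Foxo1 (-0.83), Foxo3 (-0.92), Foxp1 (-1.83) and Foxq1 (-1.15). With the vomeronasal level, genes under the main level became called, namely Foxa2 (0.54), Foxc1 (0.48), Foxd2 (0.66), Foxd3 (0.50), Foxf1 (0.73), Foxi2 (0.72), Foxj1 (0.31), Foxn1 (0.40), Foxo4 (0.41), Foxo6 (0.53) and Foxp2 (0.75). Of 54 pathway and comparison genes eligible to be named, 4, 2, 8, 15 and 3 changed sign in this way at the 99th and 90th percentiles and with the vomeronasal, keratin-associated and other-tissue levels. Those at the 99th percentile were Notch1 (-0.01), Ctbp2 (-0.27), Asxl1 (-0.34) and Atp6v1c2 (-0.30), besides Sesn1 (-0.04), which was named for its motif. Those at the other-tissue level were Ctbp2 (-0.03), Asxl1 (-0.10) and Atp6v1c2 (-0.06). Depth is not defined for these arrays, and members within about 0.5 log2 units of the level could pass or miss with small changes of setting. Foxb2, 0.65 above it, also lost its call without replicate 2. With the level of transcription factors of other tissues, members as far as 1.21 above the main level (Foxi1) lost theirs. No paired analysis was possible because the series holds 1 group.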
